A study of Mus musculus with 14 samples.

Results

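The comparison described here was voluntary wheel running against no wheel running in the triceps muscle of wild-type mice. Its members are the 7 WT libraries of a series of 14, chosen by the labels: 4 male WT mice with 6 weeks of wheel running and 3 male WT mice without wheel running. The other 7 mice were male FLExDUX4 animals, 4 with and 3 without running, which carry a human DUX4 transgene and model facioscapulohumeral muscular dystrophy. The WT mice were littermates of that line per the study's design text, and neither their age nor the distance each mouse ran was given in the labels. The title of the series asks about aerobic exercise in the FLExDUX4 model, and the WT mice serve to read the training response of healthy muscle. RNA came from whole triceps ground under liquid nitrogen and was read by QuantSeq FWD, a method that sequences the 3′ end of each transcript.

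Mouse triceps is mostly built of fast, glycolytic fibres. Endurance training is known to raise mitochondrial content, capillary supply and the use of fatty acids in such muscle, and to move fast fibres from the IIb myosin (Myh4) towards the IIx (Myh1) and IIa (Myh2) myosins. Mitochondria burn acyl chains and pyruvate and pass the electrons through complexes I to IV of the respiratory chain, whose proton gradient drives ATP synthase. The coactivator PGC-1α (Ppargc1a), together with the ERR and PPAR nuclear receptors, is known to drive much of this programme.

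The 7 libraries held 3269357 to 6092676 gene counts. Genes that mark skeletal muscle fibres were high in all of them. Acta1, skeletal actin, stood at 26094 to 38609 CPM (TMM-scaled counts relative to library size) and Ckm, muscle creatine kinase, at 8615 to 13490.0 CPM. Of fast fibres, Tnnt3, fast troponin T, stood at 13004 to 17239 CPM and Myh4 at 12575 to 37920 CPM, where every runner was below every control. Spike-in RNA took 1.00% to 1.15% of all counts in runners and 1.28% to 1.53% in controls, without overlap. Replicates are separate mice per the labels' tags, and they are numbered here in the order of the sample records. Whole muscle is a mixture, so fewer cells of a type and less RNA per cell cannot be told apart in any result that follows.

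Running moved few genes past the threshold. Among those that rose, 8 encode subunits of the respiratory chain or ATP synthase and 4 belong to the carnitine shuttle and β-oxidation. edgeR's quasi-likelihood test, fitted to all 14 libraries, called 55 of 11088 tested genes at an adjusted p under 0.05 (Benjamini-Hochberg over all tested genes), which is 0.496%. Of these, 44 rose (0.397%) and 11 fell (0.0992%), and 1182 genes had an unadjusted p under 0.05. Library sizes taken from the spike-ins in place of TMM moved the median log2 change of all tested genes from 0.01 to 0.37 and gave 602 rises and 2 falls. All 44 rises were still called on that scale, and of the 11 falls only that of mt-Tt was, though all 11 kept a negative sign. In the authors' deposited table for the same comparison, 302 of 3044 rows with an adjusted p were under 0.05, 181 of them higher and 121 lower in runners. All 55 genes had the same direction in the authors' deposited table, 38 of them were under 0.05 there and 17 had no adjusted p.

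The runners were unlike each other, and the number of calls depended on which mice were in the fit. Among the 44 risen genes, WT running 3 was the lowest of the 4 runners in 27 and the highest in 0. WT running 1 was the highest in 22 and WT running 4 in 17. The median of the 44 log2 ratios to the control mean was 1.24 in runner 1, 0.82 in runner 2, 0.69 in runner 3 and 1.21 in runner 4. In a principal component analysis of the 7 libraries, the first component held 24.1% of the variance, with the controls at 27.2 to 28.7, runner 3 at 4.24, runner 2 at -11.7, runner 4 at -31.9 and runner 1 at -45.2. Without WT running 3, 197 genes were called, and without WT running 1, WT running 4, WT control 1, WT control 2 or WT control 3 the count was 10, 2, 0, 4 or 10. The FLExDUX4 mice are in the same fit, and the WT count was 12, 103, 15 or 118 without FLExDUX4 running 1, 2, 3 or 4 and 19 or 25 without FLExDUX4 control 1 or 2. The 0 without WT control 1 went with 1020 genes at an unadjusted p under 0.05. All 55 genes kept their sign and an unadjusted p under 0.05 whichever mouse was left out. Plbd1 and Pdlim1 kept their call most often, in 13 and 12 of 14 such fits. Among the 8 called respiratory chain and ATP synthase genes, that number ran from 3 for Cox5b to 9 for Atp5g1.

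**Figure D1:**
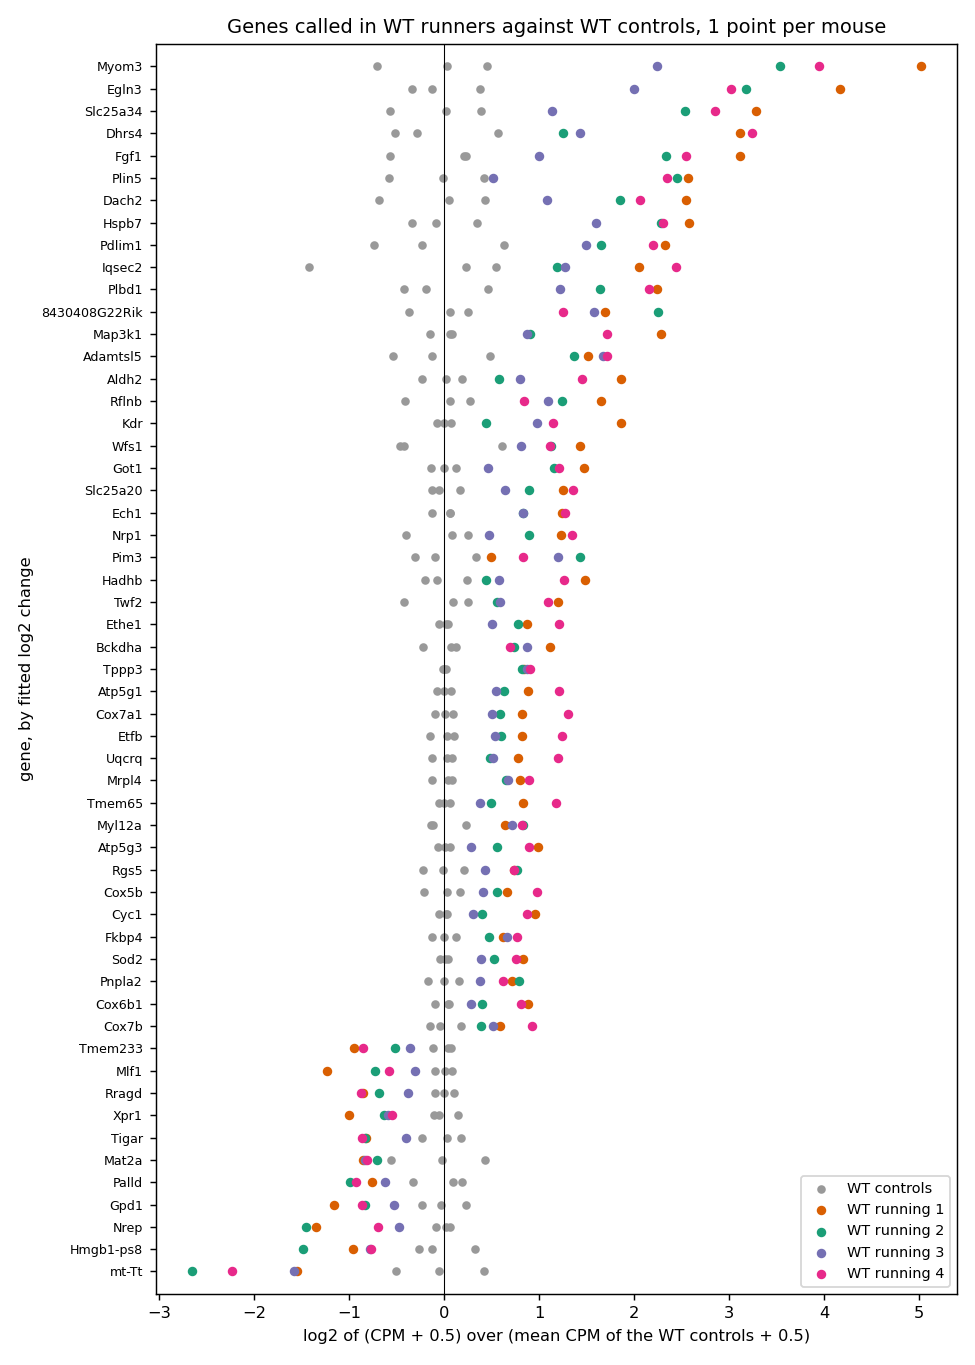
Each row is 1 of the 55 called genes, in order of fitted log2 change; the horizontal axis gives log2 of CPM + 0.5 in each mouse over the mean of the 3 WT controls + 0.5. Grey points are controls and coloured points the 4 runners. Runner 3 is the lowest runner in 27 of the 44 rises, and Myom3, Egln3 and Slc25a34 lie farthest to the right.

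Promoter windows of the called genes were read for motifs of factors known from training and stress. RefSeq windows on GRCm38.p6, 250 bases before to 50 after the start site, were available for 42 of the 55 genes, 35 risen and 7 fallen. Both strands were searched, and overlapping motifs were allowed. The core AAGGTCA, the half-site letters that ERR and other nuclear receptors are known to bind, was found in 6 of the 35 risen genes (17.1%), namely Adamtsl5, Atp5g3, Got1, Nrp1, Pim3 and Slc25a34. It was found in 3.81% of 8337 tested genes with a window and in 4.72% of all 32851 windows. Its longer form TCAAGGTCA was found in Atp5g3 alone (0.252% of tested genes), and it contains the core. The heat shock letters GAANNTTC were also found in 6 of 35, Bckdha, Ech1, Fkbp4, Myl12a, Plbd1 and Rgs5, beside 6.81% of tested genes. The hypoxia core ACGTG was found in 6 of 35, among them Egln3, beside 30.0% of tested genes, and TGACGTCA in 0 of 35 beside 3.86%. A direct repeat of AGGTCA with 1 base between its copies was found in 0 of 35 beside 0.024%. Mlf1, among the 7 fallen genes, held the core and TGACGTCA. A match is a description of letters in a window, not a binding site.

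The following windows belong to genes described in the next paragraphs. They are shown 5′ to 3′ on the strand of the gene, in lower case with the named motif in capitals. In Atp5g3 the capitals mark the core on the opposite strand, 52 bases before the start site (chr2:73911277-73911576, minus strand). In Slc25a34 they mark it on the opposite strand, 119 bases before the start (chr4:141623785-141624084, minus strand). In Got1 they mark it on the strand of the gene, 245 bases before the start (chr19:43524556-43524855, minus strand). In Egln3 they mark ACGTG, 229 bases before the start (chr12:54203825-54204124, minus strand). In Fkbp4 they mark GAANNTTC, 151 bases before the start (chr6:128438607-128438906, minus strand).
Atp5g3: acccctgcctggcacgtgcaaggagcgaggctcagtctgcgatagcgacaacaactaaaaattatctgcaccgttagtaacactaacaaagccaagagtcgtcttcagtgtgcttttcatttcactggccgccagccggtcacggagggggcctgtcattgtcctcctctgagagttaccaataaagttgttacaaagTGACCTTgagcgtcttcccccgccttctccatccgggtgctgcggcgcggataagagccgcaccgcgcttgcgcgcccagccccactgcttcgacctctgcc
Slc25a34: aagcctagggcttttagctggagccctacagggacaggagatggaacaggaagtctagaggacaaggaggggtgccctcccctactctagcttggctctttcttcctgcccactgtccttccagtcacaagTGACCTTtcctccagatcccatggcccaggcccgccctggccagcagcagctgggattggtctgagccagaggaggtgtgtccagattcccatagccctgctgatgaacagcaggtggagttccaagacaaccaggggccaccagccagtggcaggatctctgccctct
Got1: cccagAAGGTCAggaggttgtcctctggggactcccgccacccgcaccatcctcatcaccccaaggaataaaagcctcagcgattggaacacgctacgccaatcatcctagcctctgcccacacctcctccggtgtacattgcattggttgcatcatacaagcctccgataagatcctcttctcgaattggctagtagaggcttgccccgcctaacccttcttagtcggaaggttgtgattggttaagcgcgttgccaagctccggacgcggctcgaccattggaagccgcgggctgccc
Egln3: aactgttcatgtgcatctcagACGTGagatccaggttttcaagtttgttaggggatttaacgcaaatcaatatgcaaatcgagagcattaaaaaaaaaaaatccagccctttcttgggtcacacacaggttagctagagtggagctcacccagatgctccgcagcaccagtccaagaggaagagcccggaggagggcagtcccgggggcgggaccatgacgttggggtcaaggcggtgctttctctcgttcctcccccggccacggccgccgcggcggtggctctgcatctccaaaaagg
Fkbp4: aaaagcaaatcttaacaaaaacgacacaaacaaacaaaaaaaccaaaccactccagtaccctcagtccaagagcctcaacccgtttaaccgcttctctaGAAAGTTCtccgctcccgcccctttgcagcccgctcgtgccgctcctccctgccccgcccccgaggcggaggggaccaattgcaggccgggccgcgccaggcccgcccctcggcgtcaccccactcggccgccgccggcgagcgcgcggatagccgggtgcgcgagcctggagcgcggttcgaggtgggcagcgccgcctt

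Of 83 tested nuclear genes for complexes I to IV and ATP synthase, 82 had a positive log2 change and 8 rose, and the last enzyme of the chain, complex IV, which hands electrons to oxygen, held the most calls. Of 15 nuclear genes of complex IV, 4 rose, Cox7a1, Cox5b, Cox6b1 and Cox7b, and in all 15 every runner was above every control. That pattern was met by 5.74% of all tested genes. Values per mouse are given in the order of runners 1 to 4, then controls 1 to 3. Cox7b, a subunit of complex IV, counted 462, 404, 442 and 585 CPM in runners and 278, 299 and 348 CPM in controls. Runner 4 was highest, and the lowest runner stood above the highest control (log2 change 0.62 ± 0.15, adjusted p = 0.0483). Cox6b1, another small subunit, counted 563, 403, 370.1 and 535 CPM in runners and 316, 285 and 314 CPM in controls. Runners 1 and 4 were high and runners 2 and 3 lay nearer the controls (0.62 ± 0.15, adjusted p = 0.046). Cox5b counted 458, 424, 382 and 569 CPM in runners and 249, 323 and 293 CPM in controls, with runner 4 again highest and no overlap (0.67 ± 0.16, adjusted p = 0.0458). The other 11 members were not called. Cox6c differed by 0.61 ± 0.16 (adjusted p = 0.0656) and Cox8b, the muscle form of its subunit, by 0.59 ± 0.16 (adjusted p = 0.073); both are named after their values were seen.

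Complex III, which takes electrons from ubiquinol to cytochrome c, had 2 rises among 10 genes, Uqcrq and Cyc1. Uqcrq, a small subunit, counted 969.7, 789.7, 812 and 1306 CPM in runners and 519, 602 and 580.1 CPM in controls. Runner 4 stood apart at the top, and the groups did not overlap (0.77 ± 0.18, adjusted p = 0.046). The core subunit gene Uqcrc1 differed by 0.55 ± 0.15 and was not called (adjusted p = 0.076). ATP synthase had 2 rises among 18 genes, Atp5g1 and Atp5g3, which encode the same mature c subunit of the rotor ring. Atp5g3, whose promoter window is shown above, counted 1508, 1115, 927 and 1414 CPM in runners and 764, 725 and 792 CPM in controls. Runners 1 and 4 were highest, and runner 3 was the lowest runner but above all controls (0.71 ± 0.16, adjusted p = 0.0411). Atp5g1 counted 309.9, 259, 245 and 388 CPM in runners and 168, 159.9 and 176 CPM in controls and put the mice in nearly the same order (0.84 ± 0.18, adjusted p = 0.0292). Atp5g1 lies on chromosome 11, 96068852 to 96075670. The coding sequences are alike, while the libraries read transcript 3′ ends, and whether reads were split between family members was not tested. How multiply aligned reads were counted is not stated.

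Complex I, the entry point for NADH, had 0 calls among 36 genes by edgeR, although all 36 had a positive log2 change and 25 an unadjusted p under 0.05. Among all 11088 tested genes, 698 were higher at that level. In 23 of the 36, every runner was above every control, beside 5.74% of all tested genes. Ndufa8 counted 372, 323, 326 and 425 CPM in runners and 228, 218 and 279.8 CPM in controls, without overlap but short of the threshold (0.58 ± 0.15, adjusted p = 0.0637). Ndufb10 differed by 0.56 ± 0.15 and Ndufs8 by 0.62 ± 0.18 (adjusted p = 0.0842 and 0.104). The list medians of log2 change were 0.38 for complex I, 0.49 for complex II, 0.49 for complex III, 0.60 for complex IV and 0.47 for ATP synthase, beside 0.01 for all tested genes. Assembly factors, which build the complexes without staying in them, had a median of 0.18, 0 calls among 42 genes and 2 at an unadjusted p under 0.05. Mitochondrial ribosomal proteins had a median of 0.18, with 1 rise among 76. That gene was Mrpl4, of the large subunit, at 62.1, 55.9, 56.8 and 66.5 CPM in runners and 36.4, 37.6 and 32.5 CPM in controls. The 4 runners lay close together and apart from the controls (0.76 ± 0.18, adjusted p = 0.0411).

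Transcripts of the mitochondrial genome, its ribosomal RNA included, together took 30.8%, 32.7%, 27.0% and 36.6% of gene counts in runners 1 to 4 and 20.9%, 26.4% and 24.7% in controls 1 to 3. The lowest runner lay just above the highest control, and the difference of 7.74 percentage points had an exact permutation p of 0.0571 (2-sided, 4 against 3 mice), the smallest that this test can give, so that no measure compared in this way can pass 0.05. Its 2 ribosomal RNAs, mt-Rnr1 and mt-Rnr2, took 18.9%, 19.1%, 13.9% and 19.2% in runners and 11.2%, 14.3% and 12.1% in controls, so that runner 3 fell among the controls. The rest of the mitochondrial genome took 11.9%, 13.6%, 13.1% and 17.5% in runners and 9.75%, 12.2% and 12.6% in controls, where runner 1 overlapped the controls. Neither mt-Rnr2 (0.56 ± 0.22) nor mt-Rnr1 (0.50 ± 0.27), named after their values were seen, was called (adjusted p = 0.314 and 0.547). Of 13 protein-coding genes of that genome, mt-Nd4l, mt-Co2, mt-Co3, mt-Atp6 and mt-Atp8 had only 1 to 19 reads in the 7 libraries together and were left out of the fit. Whether these transcripts were scarce or were lost in counting was not tested. Among the other 8, edgeR called 0, 3 had an unadjusted p under 0.05, and mt-Co1, a core subunit of complex IV, differed by 0.56 ± 0.17 (adjusted p = 0.13). Tmem65, which encodes a protein of the inner mitochondrial membrane, rose. It counted 117, 92.7, 85.3 and 149 CPM in runners and 65.6, 62.9 and 68.3 CPM in controls, with runner 4 highest and runner 3 lowest among runners (0.76 ± 0.18, adjusted p = 0.0411). Ethe1, a sulphur dioxygenase of the mitochondrial matrix, counted 37.01, 34.6, 28.4 and 46.9 CPM in runners and 20.2, 19.2 and 20.5 CPM in controls. All 3 controls lay close together and below every runner (0.88 ± 0.21, adjusted p = 0.046). Ethe1 overlaps Zfp575 on the opposite strand.

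**Figure D2:**
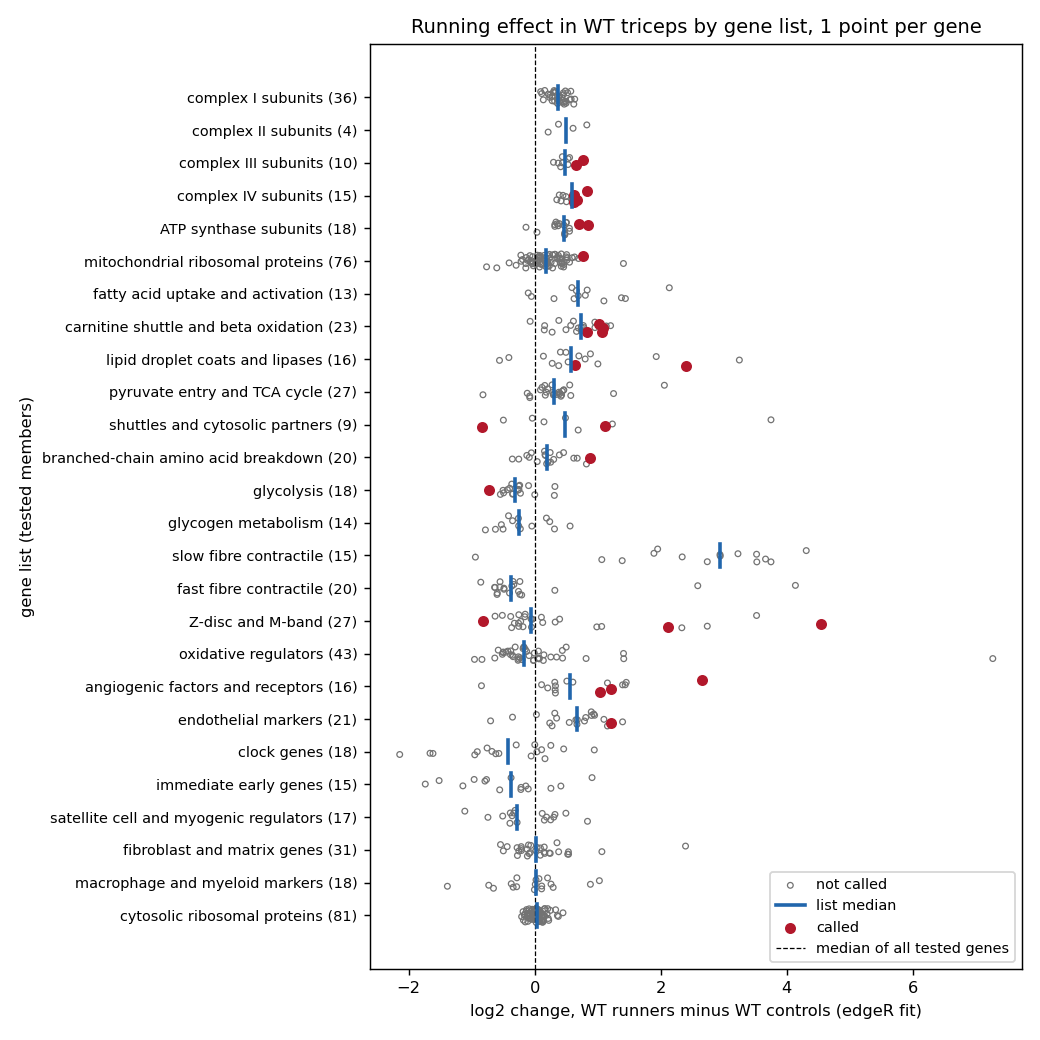
Each point is 1 tested gene of a list, placed on the horizontal axis by its edgeR log2 change, WT runners minus WT controls; filled red points are called genes, the blue bar is the list median, and the dashed line is the median of all tested genes (0.01). Respiratory chain lists lie to the right with small spread, fatty acid lists to the right and slow fibre genes far to the right, with wider spread, and cytosolic ribosomal proteins on the line.

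Among the genes that bring fat into the mitochondrion and burn it, Slc25a20, Ech1, Hadhb and Etfb rose. They were 4 of 23 genes of the carnitine shuttle and β-oxidation, of which 0 fell, and the median log2 change was 0.74, beside 0.46 for the 83 nuclear genes of oxidative phosphorylation. Every runner was above every control in 14 of the 23, beside 5.74% of all tested genes. Ech1, an isomerase that prepares unsaturated acyl chains for β-oxidation (chromosome 7, 28825217 to 28832247, GRCm38), counted 167, 125, 124 and 169 CPM in runners and 63.9, 73.02 and 73.1 CPM in controls. Even the lowest runner was well above the highest control (1.06 ± 0.20, adjusted p = 0.0263). Hadhb, the thiolase subunit of the trifunctional protein, counted 137, 66.4, 73.3 and 118 CPM in runners and 46.5, 42.6 and 57.8 CPM in controls. Runners 1 and 4 were high, and runner 2 came close to control 3 (1.02 ± 0.22, adjusted p = 0.0411). Slc25a20, the carrier that brings acylcarnitine through the inner membrane, counted 71.8, 56.3, 47.1 and 77.7 CPM in runners and 28.8, 27.4 and 33.7 CPM in controls and did not overlap (1.08 ± 0.21, adjusted p = 0.0194). Hadh and Decr1, named after their values were seen, differed by 0.77 ± 0.19 and 0.69 ± 0.18 and missed the threshold (adjusted p = 0.0524 and 0.0589). Cpt1b, the muscle enzyme that loads acyl chains onto carnitine, had 3 counts in all 7 libraries and was left out of the fit. Whether its transcript was scarce or was lost in counting was not tested.

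Uptake and storage of fat showed the same direction. Of 13 genes of fatty acid uptake and activation, edgeR called 0, and their median was 0.69. At an unadjusted p under 0.05, 9 of the 13 were higher in runners, beside 698 of 11088 tested genes. In 8 of the 13, every runner was above every control, beside 5.74% of all tested genes. Fabp3, the fatty acid binding protein of heart and oxidative muscle, counted 593, 326, 189.8 and 559 CPM in runners and 84.1, 98.1 and 103 CPM in controls. All runners were above the controls with a wide spread, and the gene was not called (2.14 ± 0.52, adjusted p = 0.125). Cd36, a fatty acid transporter named after its values were seen, counted 185, 128, 86.1 and 176 CPM in runners and 55.95, 60.5 and 49.3 CPM in controls and put the runners in a similar order (1.38 ± 0.33, adjusted p = 0.096). Acsl1, which activates long acyl chains, differed by 0.69 ± 0.18 (adjusted p = 0.0637). Among 16 genes of lipid droplet coats and lipases, 2 rose, Plin5 and Pnpla2. Pnpla2, adipose triglyceride lipase, which starts the breakdown of stored fat, counted 139.7, 147, 111 and 131 CPM in runners and 95.1, 75.8 and 84.8 CPM in controls. Here runner 2 was highest, and the groups did not overlap (0.64 ± 0.15, adjusted p = 0.0411). Plin5, a droplet coat protein that tethers droplets to mitochondria, counted 15.04, 13.9, 3.25 and 12.9 CPM in runners and 1.26, 3.02 and 2.11 CPM in controls. Runner 3 lay just above control 2, and the other runners were far higher (2.39 ± 0.49, adjusted p = 0.028). Plin3 differed by 1.00 ± 0.26 without a call (adjusted p = 0.0702).

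Several enzymes of amino acid and aldehyde handling rose as well. Got1, the cytosolic aspartate aminotransferase of the malate-aspartate shuttle (chromosome 19, 43499752 to 43524605), counted 474, 380.0, 235 and 395 CPM in runners and 171, 155 and 186 CPM in controls. Runner 3 was lowest and still above control 3 (1.12 ± 0.23, adjusted p = 0.043). Its partner Mdh1, cytosolic malate dehydrogenase, counted 494, 319, 244 and 515 CPM in runners and 165, 156 and 181 CPM in controls without a call (1.23 ± 0.31, adjusted p = 0.125). The enzyme of the competing glycerol phosphate shuttle, Gpd1, fell, from 283 CPM ± 45.7 (SD, n = 3) in controls to 159 CPM ± 28.3 (SD, n = 4) in runners, and was called on the TMM scale (adjusted p = 0.0292). Bckdha, a subunit of the dehydrogenase that commits branched-chain amino acids to breakdown, counted 43.3, 33.2, 36.5 and 32.2 CPM in runners and 20.8, 16.9 and 21.7 CPM in controls. It was the only call among 20 genes of that pathway, whose median was 0.20 (0.88 ± 0.21, adjusted p = 0.0411). Aldh2, mitochondrial aldehyde dehydrogenase, counted 109, 44.4, 51.97 and 81.8 CPM in runners and 25.03, 30.03 and 33.7 CPM in controls, with runner 1 highest and no overlap (1.28 ± 0.27, adjusted p = 0.042). Slc25a34, a mitochondrial carrier whose promoter window is shown above, counted 18.8, 11.01, 3.86 and 13.8 CPM in runners and 0.841, 1.51 and 2.11 CPM in controls. Runner 3 was the lowest runner and above control 3 (3.02 ± 0.56, adjusted p = 0.0194). Dhrs4, a carbonyl reductase, counted 23.9, 6.22, 7.11 and 26.2 CPM in runners and 1.47, 3.67 and 1.81 CPM in controls, so that runners 1 and 4 stood far above runners 2 and 3 (2.75 ± 0.54, adjusted p = 0.0292).

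The tricarboxylic acid cycle and the entry of pyruvate held 0 calls among 27 genes by edgeR, with a median of 0.30. At an unadjusted p under 0.05 there were 12, all of them higher in runners, beside 698 higher of 11088 tested genes. Cs, citrate synthase, a common marker of mitochondrial content, counted 292, 219, 231 and 289 CPM in runners and 236, 236 and 241 CPM in controls. The groups overlapped, with runners 2 and 3 below every control (0.12 ± 0.14, adjusted p = 0.86). Idh2, the NADP-linked isocitrate dehydrogenase of the matrix, named after its values were seen, counted 242, 61.4, 43.9 and 143 CPM in runners and 24.4, 31.98 and 32.2 CPM in controls. It did not overlap, but runners 1 and 4 stood far above runners 2 and 3 (2.06 ± 0.66, adjusted p = 0.254). Pdk4, a kinase that shuts off pyruvate dehydrogenase when fat is burned, counted 251, 494, 201 and 205 CPM in runners and 185, 83.2 and 93.3 CPM in controls, with runner 2 far above the others (1.25 ± 0.66, adjusted p = 0.56). Ucp3 counted 13.5, 55.9, 25.2 and 32.4 CPM in runners and 39.3, 12.96 and 18.4 CPM in controls, and the groups overlapped widely (0.43 ± 0.46, adjusted p = 0.848).

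Glycolysis and glycogen genes lay lower in runners on the TMM scale. Of 18 glycolysis genes, 1 was called, and it fell: Tigar, a phosphatase known to restrain glycolysis. The list median was -0.30, and it was 0.05 with library sizes from the spike-ins, 0.33 below the median of all genes on that scale. Every runner was below every control in 4 of 18 glycolysis genes and in 4 of 14 glycogen genes, where 4.56% of all tested genes had this pattern. Tigar counted 64.1, 63.6, 86.3 and 62.3 CPM in runners and 129, 97.2 and 116 CPM in controls, with runner 3 above the other 3 runners (-0.73 ± 0.17, adjusted p = 0.045). Gapdh counted 137, 189, 206 and 143 CPM in runners and 251, 194 and 238 CPM in controls, and runner 3 overlapped control 2 (-0.43 ± 0.16, adjusted p = 0.251). Ldhb, the form of oxidative muscle, counted 185, 102, 39.2 and 163 CPM in runners and 10.3, 3.02 and 6.62 CPM in controls, and Ldha, the form of glycolytic muscle, counted 523, 990.0, 1237 and 837 CPM in runners and 1115, 1142 and 1201 CPM in controls; neither was called (4.19 ± 0.82 and -0.36 ± 0.19, adjusted p = 0.0637 and 0.52). Ldhb made up 26.1%, 9.36%, 3.07% and 16.3% of the summed Ldha and Ldhb counts in runners 1 to 4 and 0.916%, 0.264% and 0.548% in controls 1 to 3 (exact permutation p = 0.0571). The lowest runner was above the highest control. Slc16a1, a lactate and ketone transporter, differed by 0.89 ± 0.23 (adjusted p = 0.0673). The glucose transporter gene Slc2a4 (0.12 ± 0.15) and hexokinase 2, Hk2 (0.31 ± 0.16), were not called (adjusted p = 0.862 and 0.501).

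Among the sarcomere genes, slow and IIa or IIx genes differed widely between the runners. Myh2 took 10.8%, 2.03%, 0.610% and 8.06% of the summed counts of Myh7, Myh2, Myh1 and Myh4 in runners 1 to 4 and 0.206%, 0.156% and 0.158% in controls 1 to 3. Myh1 took 18.1%, 8.98%, 4.44% and 15.96% in runners and 1.45%, 0.980% and 1.1603% in controls. Both shares were higher in all 4 runners than in any control (exact permutation p = 0.0571 each, adjusted p = 0.0935 over 18 measures). Myh7, the slow myosin, did not follow them. It counted 40.2, 0.533, 3.05 and 27.3 CPM in runners and 0.631, 4.10 and 2.11 CPM in controls. Runners 1 and 4 were high, and runners 2 and 3 did not exceed the highest control (2.94 ± 1.63, adjusted p = 0.588). The slow genes Tnnc1, troponin C, and Myl2, a myosin light chain, named after their values were seen, were also high in runners 1 and 4. Myl2 counted 84.3, 3.73, 6.09 and 67.2 CPM in runners and 2.94, 2.16 and 0.602 CPM in controls, and Tnnc1 had 0 reads in runner 2 against 154, 51 and 188 reads in runners 1, 3 and 4 and 5, 5 and 8 reads in controls 1 to 3. Runner 2 thus had Myh2 and Myh1 well above the controls, with Tnnc1 below them and Myh7 at 3 reads, as many as in control 1. Other genes of oxidative fibres separated all runners from all controls without a call: Mb, myoglobin, at 3794, 1687, 1173 and 4130.2 CPM in runners and 356, 389 and 338 CPM in controls (2.90 ± 0.63, adjusted p = 0.0843), and Myoz2, a Z-disc protein of slow fibres, at 74.4, 25.6, 14.2 and 83.4 CPM in runners and 3.37, 6.27 and 3.01 CPM in controls (3.52 ± 0.97, adjusted p = 0.175). Myosin heavy chain transcripts are alike, and the same limit holds for them.

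**Figure D3:**
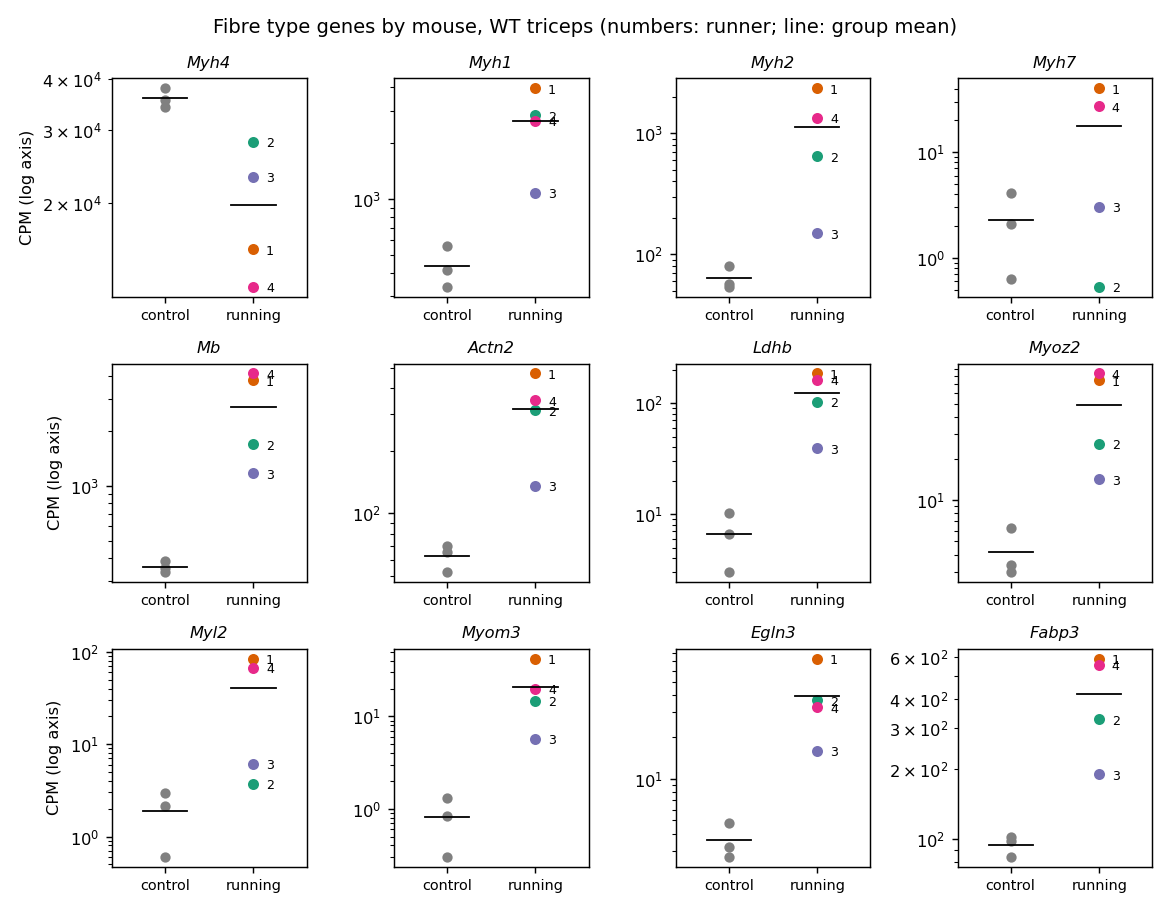
CPM on log axes for 12 genes in each WT mouse, with grey points for the 3 controls, coloured and numbered points for the 4 runners, and a line at each group mean. Myh1, Myh2, Mb, Actn2, Ldhb and Fabp3 are above all controls in every runner, while Myh7 is so only in runners 1 and 4.

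Structural partners of actin and myosin were among the calls. Myom3, an M-band protein found in slow and IIa fibres, counted 42.2, 14.7, 5.68 and 19.8 CPM in runners and 0.841, 1.30 and 0.301 CPM in controls (4.55 ± 0.81, adjusted p = 0.0411). Every runner was above the controls, runner 1 by the most and runner 3 by the least. Pdlim1, a scaffold that binds α-actinin (chromosome 19, 40221173 to 40271842), counted 23.5, 14.6, 12.99 and 21.4 CPM in runners and 3.58, 2.38 and 6.92 CPM in controls. Runners 1 and 4 were highest, and runner 3 was still well above control 3 (2.12 ± 0.36, adjusted p = 0.00588). Actn2, the α-actinin of slow and oxidative fibres, named after its values were seen, counted 468, 312, 136 and 348 CPM in runners and 70.05, 52.5 and 65.6 CPM in controls and was not called (2.33 ± 0.50, adjusted p = 0.0814). Myl12a, a regulatory light chain of nonmuscle myosin (chromosome 17, 70993656 to 71002878), counted 260.2, 296, 274 and 294 CPM in runners and 151, 196 and 154 CPM in controls. The runners agreed closely and did not overlap the controls (0.75 ± 0.15, adjusted p = 0.0263). Myl12a overlaps Myom1 on the opposite strand, and whether counting used the strand was not given. Twf2, an actin monomer binding protein, counted 102, 64.8, 65.98 and 94.1 CPM in runners and 46.9, 52.1 and 32.5 CPM in controls, with runners 1 and 4 highest (0.89 ± 0.18, adjusted p = 0.028). Rflnb, a partner of filamin, rose by 1.25 ± 0.28 and Tppp3, of a family that promotes tubulin polymerization, by 0.87 ± 0.21 (adjusted p = 0.0411 and 0.043). Tppp3 counted 35.4, 34.98, 36.3 and 36.99 CPM in runners and 19.8, 19.4 and 19.6 CPM in controls, with little spread within either group. Palld, palladin, an actin scaffold, fell and counted 54.02, 46.2, 59.7 and 47.96 CPM in runners and 98.4, 73.2 and 105 CPM in controls (-0.83 ± 0.17, adjusted p = 0.0263).

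Of 20 fast fibre genes, 0 were called by edgeR, and 13 were lower and 3 higher at an unadjusted p under 0.05. Among all 11088 tested genes, 484 were lower and 698 higher at that level. Every runner was below every control in 9 of the 20 and above every control in 3, beside 4.56% and 5.74% of all tested genes. The list holds Myh2, which had its highest log2 change, 4.14. The list median was -0.38, and -0.03 with spike-in library sizes, a difference of -0.41 from the median of all genes on that scale. Casq1, the calsequestrin of fast fibres, counted 539, 698, 931 and 588 CPM in runners and 989.9, 1068 and 1066 CPM in controls and did not overlap (-0.60 ± 0.16, adjusted p = 0.0656). Jph1, a junctophilin that joins the T-tubule to the calcium store, differed by -0.55 ± 0.14 (adjusted p = 0.0702), and Ampd1, muscle AMP deaminase, by -0.59 ± 0.17 (adjusted p = 0.125). The 27 Z-disc and M-band genes split: 2 rose, 1 fell, and the median was -0.06. Myom2, the M-band protein of fast fibres, named after its values were seen, differed by -0.51 ± 0.14, against the rise of Myom3 (adjusted p = 0.0872).

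Genes of blood vessels and of oxygen sensing rose in part. Kdr, the main receptor for VEGF on endothelial cells, counted 91.2, 33.7, 49.3 and 55.4 CPM in runners and 24.8, 26.1 and 23.5 CPM in controls. Runner 1 was highest, and runner 2 was the lowest runner (1.21 ± 0.26, adjusted p = 0.0411). Nrp1, a co-receptor for VEGF, counted 58.6, 46.4, 34.5 and 63.5 CPM in runners and 18.5, 29.4 and 26.2 CPM in controls. Runner 3 was nearest to the controls (1.04 ± 0.24, adjusted p = 0.046). Fgf1, an angiogenic growth factor, counted 25.3, 14.6, 5.48 and 16.99 CPM in runners and 2.94, 1.51 and 3.01 CPM in controls and did not overlap (2.65 ± 0.47, adjusted p = 0.0127). These were the 3 rises among 16 angiogenic factors and receptors, whose median was 0.56. Vegfa itself counted 147, 51.3, 46.3 and 83.5 CPM in runners and 104, 54.2 and 54.2 CPM in controls, with control 1 above runners 2, 3 and 4 (0.21 ± 0.42, adjusted p = 0.931), and it turned to -0.23 without WT running 1. Vegfb differed by 0.61 ± 0.19 (adjusted p = 0.164). Egln3, a prolyl hydroxylase that marks hypoxia-inducible factors for removal, counted 73.2, 36.6, 15.8 and 32.7 CPM in runners and 2.73, 3.24 and 4.81 CPM in controls. Every runner was above every control, with runner 1 highest and runner 3 lowest (3.48 ± 0.60, adjusted p = 0.0411). It was the only call among 14 hypoxia genes, whose median was 0.11.

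Of 21 endothelial markers, 1 was called (Kdr) and 11 were higher at an unadjusted p under 0.05, beside 698 of 11088 tested genes. In 10 of the 21, every runner was above every control, beside 5.74% of all tested genes. The summed level of the markers was 573, 516, 440 and 535 CPM in runners 1 to 4 and 318, 322 and 349 CPM in controls 1 to 3. The ratio of means was 1.56 (exact permutation p = 0.0571). Among them, Gpihbp1, which holds lipoprotein lipase on capillaries, differed by 1.10 ± 0.31, Cav1, caveolin, by 0.68 ± 0.19 and Ptprb, an endothelial phosphatase, by 0.67 ± 0.19 (adjusted p = 0.0872, 0.0889 and 0.0912). Of 11 smooth muscle and pericyte markers, 1 rose, Rgs5, which marks pericytes, at 228, 232, 184 and 227 CPM in runners and 116, 157 and 135 CPM in controls (0.68 ± 0.16, adjusted p = 0.0433). Runner 3 was the lowest runner and above all controls. All smooth muscle and pericyte markers together summed to 1149 to 1291 CPM in runners and 956 to 1104 CPM in controls. Red blood cell genes summed to 1179 to 1888 CPM in runners and 501 to 1011 CPM in controls. Schwann cell and nerve markers summed to 56.0 to 87.8 CPM in runners and 41.4 to 46.9 CPM in controls. Adipocyte markers (210.2 to 307 against 187 to 236 CPM), tendon markers (104 to 190 against 77.9 to 113 CPM), macrophage markers (98.7 to 194 against 96.9 to 185 CPM) and fibroblast and matrix genes (2153 to 2565 against 2174 to 2924 CPM) overlapped between the groups. The part of these cells and of blood in the vessel and lipid results was not tested. The T cell genes Cd3g, Cd4 and Cd8a were at 0 in all 7 libraries.

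**Figure D4:**
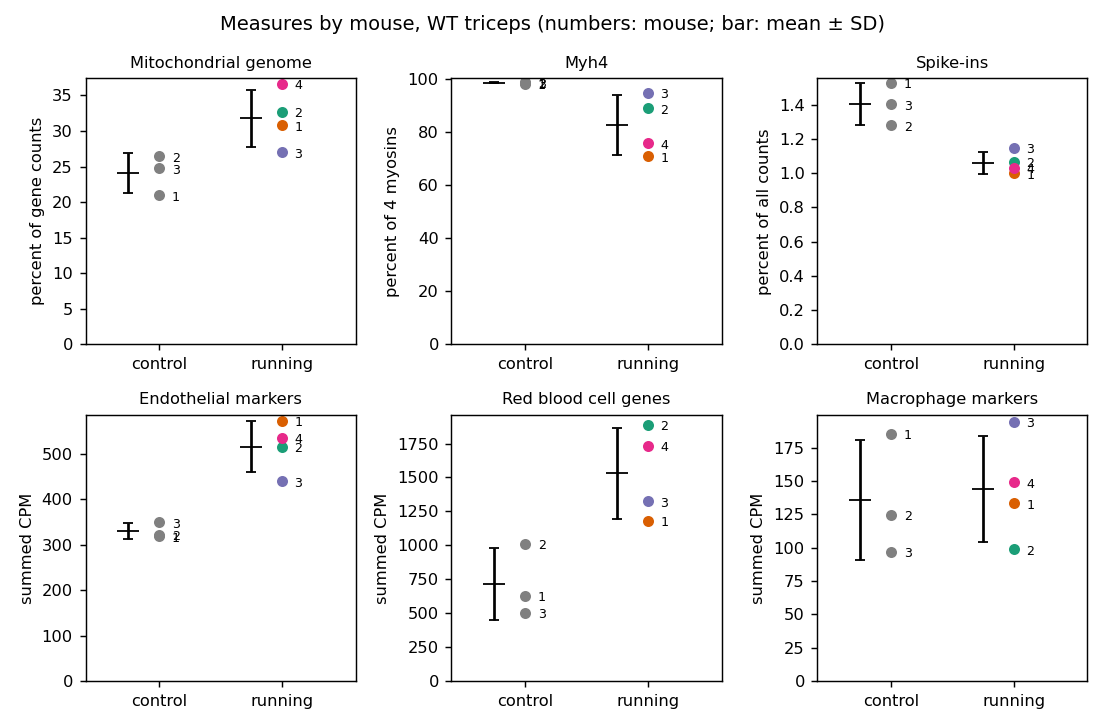
Measures in each WT mouse on axes that start at 0; points are numbered mice, and bars are mean ± SD of 3 controls and 4 runners. The mitochondrial, endothelial and red blood cell values of the runners lie above those of the controls, their Myh4 and spike-in shares lie below, and the macrophage marker sums overlap.

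Chaperone and antioxidant lists gave 1 rise each: Hspb7, Fkbp4 and Sod2. Hspb7, a small heat shock protein of striated muscle, counted 100.3, 81.9, 50.6 and 83.00 CPM in runners and 12.8, 20.96 and 15.3 CPM in controls and stood far above the controls in every runner (2.27 ± 0.40, adjusted p = 0.0411). Cryab, αB-crystallin, counted 1752, 1423, 1052 and 1407 CPM in runners and 841, 473 and 708 CPM in controls and did not overlap, but was not called (1.06 ± 0.25, adjusted p = 0.0739), nor was Hspb1 (0.61 ± 0.17, adjusted p = 0.096). Fkbp4, a co-chaperone of HSP90 whose promoter window is shown above, counted 107, 96.4, 110.2 and 119 CPM in runners and 69.4, 63.5 and 75.5 CPM in controls. The runners agreed closely (0.64 ± 0.15, adjusted p = 0.0411), in a list of 20 with a median of 0.07. Sod2, the superoxide dismutase of mitochondria, rose at 228, 185, 169 and 217 CPM in runners and 129, 133 and 124 CPM in controls (0.64 ± 0.15, adjusted p = 0.043), and Cat, catalase, differed by 0.69 ± 0.21 (adjusted p = 0.119).

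Further rises belonged to genes of varied roles. Plbd1, a phospholipase B-like protein of lysosomes (chromosome 6, 136612070 to 136661928), had the smallest adjusted p, 0.00561, and counted 29.3, 19.2, 14.2 and 27.6 CPM in runners and 5.05, 8.21 and 4.21 CPM in controls (1.93 ± 0.32). Every runner was well above every control. Wfs1, wolframin of the endoplasmic reticulum, counted 38.00, 30.7, 24.6 and 30.4 CPM in runners and 9.89, 10.2 and 21.4 CPM in controls, with control 3 close to runner 3 (1.19 ± 0.28, adjusted p = 0.045). Pim3, a serine/threonine kinase, counted 27.5, 53.5, 45.3 and 34.9 CPM in runners and 24.6, 18.1 and 15.6 CPM in controls (1.04 ± 0.25, adjusted p = 0.0483). Here runner 1 was lowest, which held for 2 of the 44 risen genes. Map3k1, a kinase of stress signalling, rose by 1.71 ± 0.41, Iqsec2, an exchange factor for ARF GTPases, by 2.02 ± 0.46, Adamtsl5, a secreted matrix protein, by 1.65 ± 0.35 and Dach2, a transcriptional cofactor, by 2.29 ± 0.54. The protein-coding gene 8430408G22Rik, which overlaps Rassf4 on the opposite strand, rose by 1.89 ± 0.44. Adjusted p for these 5 ran from 0.0292 for Adamtsl5 to 0.0458 for Map3k1.

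The 11 falls had a median log2 change of -0.80, beside 1.04 for the 44 rises, and all but mt-Tt lost their call with spike-in library sizes. Rragd, a Rag GTPase that relays amino acid supply to mTORC1, counted 105, 118, 147 and 104 CPM in runners and 205, 179 and 190.2 CPM in controls. No runner reached the lowest control (-0.69 ± 0.15, adjusted p = 0.0388). Mlf1 counted 139, 198, 265 and 220.0 CPM in runners and 349, 331 and 307 CPM in controls, with runner 1 lowest (-0.68 ± 0.16, adjusted p = 0.0411), and Tmem233, a membrane protein gene, fell by 0.65 on the log2 scale (adjusted p = 0.046). Mat2a, which makes S-adenosylmethionine, counted 149, 165, 151 and 153 CPM in runners and 362, 182 and 264 CPM in controls. The runners lay within a narrow range, and control 2 came close to them (-0.80 ± 0.18, adjusted p = 0.0411). It overlaps Particl on the opposite strand. Nrep counted 52.8, 48.8, 96.6 and 83.00 CPM in runners and 137, 127 and 141 CPM in controls and Xpr1, a phosphate exporter, 66.9, 85.95, 88.7 and 91.1 CPM in runners and 129, 149 and 125 CPM in controls, each without overlap (adjusted p = 0.0411 and 0.043). The pseudogene Hmgb1-ps8 (-0.99 ± 0.24) and the mitochondrial tRNA gene mt-Tt (-2.0 ± 0.41) are uncertain, since the first shares sequence with Hmgb1 and the second adjoins a coding gene of the mitochondrial genome.

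Among 43 regulators of the oxidative programme, edgeR called 0, where 0.496% of all tested genes were called. The log2 change was negative in 28 of the 43, beside 5405 of 11088 tested genes. Every runner was below every control in 9 and above every control in 2, beside 4.56% and 5.74% of all tested genes. The list median was -0.17, and 0.19 with spike-in library sizes, a difference of -0.18 from the median of all genes on that scale. Ppargc1a counted 73.02, 79.03, 44.1 and 66.01 CPM in runners and 49.2, 49.9 and 45.4 CPM in controls, and runner 3 lay below all controls (0.44 ± 0.19, adjusted p = 0.364). Ppara, the nuclear receptor of fatty acid use, counted 17.8, 8.52, 5.68 and 14.5 CPM in runners and 4.21, 4.10 and 4.81 CPM in controls (1.41 ± 0.38, adjusted p = 0.0747). Esrrb, an ERR receptor, had 57, 8, 5 and 11 reads in runners 1 to 4 and 0 in each control, where 3 reads would stand for 0.631 to 0.903 CPM. Camk2a and Ppp3ca, kinase and phosphatase of calcium signalling, differed by -0.58 ± 0.16 and -0.50 ± 0.14 (adjusted p = 0.0814 and 0.0841). Clock genes held 0 calls by edgeR among 18, with 8 lower at an unadjusted p under 0.05, beside 484 of 11088 tested genes. The clock list median was -0.43, or -0.07 with spike-in library sizes. The latter differed by -0.45 from the median of all genes on that scale. Rora counted 125, 202, 201 and 174 CPM in runners and 249, 259 and 299 CPM in controls, Nr1d2 counted 23.9, 40.7, 43.2 and 27.8 CPM in runners and 57.8, 56.8 and 56.9 CPM in controls and Bhlhe41 counted 23.9, 44.8, 61.9 and 37.7 CPM in runners and 86.7, 70.2 and 86.95 CPM in controls. All 3 genes lay below the controls in every runner without a call (adjusted p = 0.0578, 0.073 and 0.0747). The time of day of collection was not given, so its part in these values was not tested.

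Among secreted factors and genes of muscle mass, Fndc5, the precursor of irisin, counted 182, 88.6, 63.95 and 142 CPM in runners and 56.4, 54.4 and 39.1 CPM in controls, and Mstn, myostatin, which limits muscle growth, counted 20.98, 69.4, 68.01 and 45.7 CPM in runners and 114, 76.5 and 93.9 CPM in controls; both were without overlap and without a call (adjusted p = 0.342 and 0.401). The ubiquitin ligase genes of atrophy, Fbxo32 and Trim63, differed by -0.16 ± 0.17 and -0.27 ± 0.29, and both signs turned with spike-in library sizes (0.21 and 0.07).  In 35 of the 57 lists, edgeR called 0 members. Satellite cell and myogenic regulators, fibroblast and matrix genes, immediate early genes and the unfolded protein response held 0 calls among 17, 31, 15 and 17 tested. As 0.496% of all tested genes were called, 0 calls in lists of this size is near the share of all genes. These lists held 0 genes in which the groups did not overlap, beside 5.74% higher and 4.56% lower of all tested genes. In the same order, 0, 2, 3 and 2 members had an unadjusted p under 0.05, beside 1182 of 11088 tested genes. Pax7, the satellite cell factor (0.25 ± 0.67), Col1a1, the main fibrillar collagen (-0.21 ± 0.21), and Cd68, of macrophages (-1.38 ± 0.84), were not called (adjusted p = 0.956, 0.819 and 0.604). Cytosolic ribosomal proteins had a median of 0.03 and 0 calls among 81, with 1 at an unadjusted p under 0.05.

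The same contrast in FLExDUX4 mice, which uses other animals, gave 0 calls by edgeR, DESeq2 and limma-voom, with 738, 768 and 810 genes at an unadjusted p under 0.05. Of the 55 genes called in WT, 49 had the same sign in FLExDUX4. The 44 risen genes had a median log2 change of 1.04 in WT and 0.32 in FLExDUX4, and the 11 fallen genes -0.80 and -0.30; since they were chosen by their change in WT, the larger WT value is a description. The difference between the genotypes was tested by the interaction term, which called 0 of 11088 genes (0%) by edgeR, by DESeq2 and by limma-voom, with 537, 605 and 621 genes at an unadjusted p under 0.05. Of the 55, 29 had an unadjusted p under 0.05 for the interaction. That count is a description too, since the WT change that chose these genes is part of the interaction. Pim3 had the smallest p of all, with a change of 1.04 ± 0.25 in WT and -0.71 ± 0.24 in FLExDUX4 (difference 1.75 ± 0.35, adjusted p = 0.199). Its FLExDUX4 controls averaged 48.1 CPM and its FLExDUX4 runners 29.4 CPM, against 19.5 and 40.3 CPM in WT. Egln3 and Slc25a34 had the largest FLExDUX4 values among the 55, at 2.28 ± 0.54 and 1.78 ± 0.51, uncalled there. Myom3 changed by 4.55 ± 0.81 in WT and stood at 0.51 ± 0.57 in FLExDUX4, a difference short of the threshold (adjusted p = 0.954). Its controls averaged 0.813 CPM in WT and 11.66 CPM in FLExDUX4, and its runners 20.6 and 16.98 CPM. Every risen gene had a higher control mean in FLExDUX4 than in WT, so a smaller FLExDUX4 change need not mean a lower level in runners. These genes were chosen by their WT change, and the difference between the control groups was not tested.

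**Figure D5:**
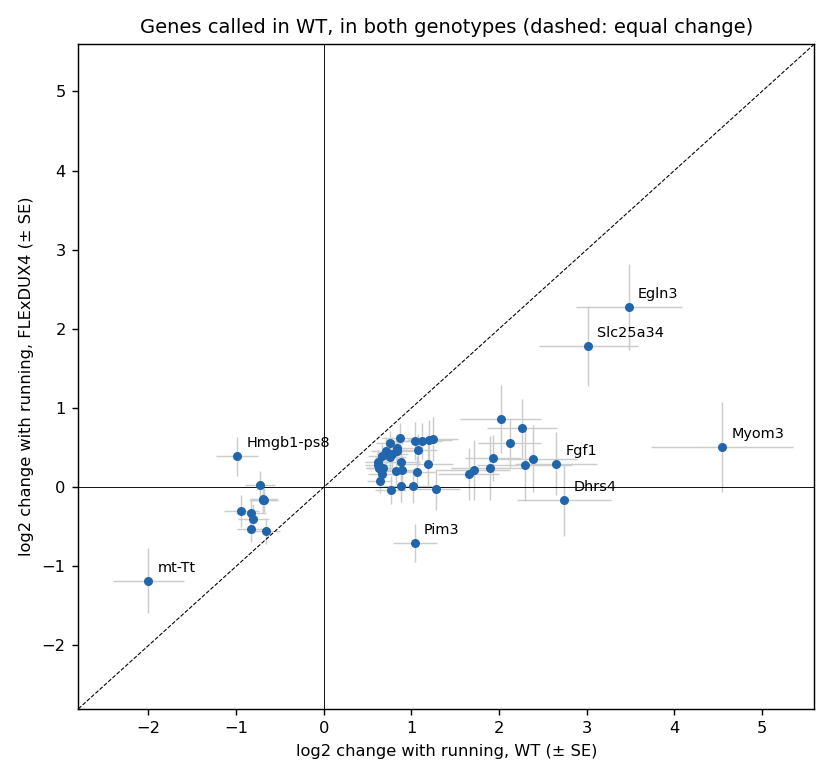
Log2 change with running in WT (horizontal) and in FLExDUX4 (vertical) for the 55 genes called in WT. Bars are standard errors from the F statistic, and a dashed line marks equal change. Egln3 and Slc25a34 lie highest in FLExDUX4, and Pim3 and Hmgb1-ps8 lie farthest on the opposite side of 0 in FLExDUX4.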

How the data were processed

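The data were raw read counts per gene and spike-in for 14 triceps libraries, as the authors deposited them in a single table. Per the submitters' processing notes, the tools were cutadapt 1.16, FastQC 0.11.7, STAR 2.5.3a, featureCounts 1.6.2 and DESeq2, and GRCm38 and GRCh38 are both named as builds. Which annotation was used, whether counting used the strand, and how multiply aligned reads were treated is not stated. The authors also deposited log2 fold changes and p-values for WT control over WT running, whose sign was turned here to running over control.

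Spike-ins (99 rows) were set aside, and of 52550 gene identifiers 52403 were found in GENCODE M21, whose coordinates on GRCm38 are given. edgeR 4.0.16 in R 4.3.3 was fitted once to all 14 libraries with a mean per group, TMM factors, filterByExpr with a minimum count of 10 (11088 genes kept) and robust quasi-likelihood; genes were called at an adjusted p under 0.05. Levels are TMM-scaled CPM, shown per mouse or as mean ± SD. Each log2 change carries a standard error, the absolute change divided by the square root of the quasi-likelihood F statistic. Counts of WT replicates differed by a chi-square of at least 5.46 per degree of freedom, so no pair looked like a duplicate. The number of reads behind 1 CPM was 3.27 to 6.09, and counting floors cover counting error only. Per-mouse measures were compared by 2-sided exact permutation tests, adjusted over 18 measures; the smallest p of 4 against 3 mice is 0.0571. A list is described by its counts and median beside those of all tested genes.

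The comparison, the 57 gene lists and the rule for naming genes were chosen with earlier results of these data known. The rule allowed every called gene, the 4 smallest p and 2 highest levels in each list, a fixed set of training genes and the 5 smallest interaction p. Not every gene that it allowed is described here. Other genes are said to be named after their values were seen. The fit was tested on simulated data. Alternatives were DESeq2 1.42.0, limma-voom (limma 3.58.1), RLE, upper quartile and spike-in scaling, counts without mitochondrial genes, other filters, no robust estimate, an adjusted p under 0.10, the WT libraries alone, and each mouse left out; leaving out FLExDUX4 mice for the WT counts was added after seeing the data.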

Additional observations from a re-analysis of the deposited data

Results flagged for a closer look

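In groups of 4 mice, a runner was singled out when its gap to the nearest other runner, divided by the range of the 4, passed Dixon's 95% critical value. Of 156 values checked, 5 met this, about as many as the 1 in 20 that chance gives or fewer. The singled-out values were Tigar at 86.3 CPM in WT running 3 (others 62.3 to 64.1), Rgs5 at 184 CPM in WT running 3 (others 227 to 232), Pdk4 at 494 CPM in WT running 2 (others 201 to 251), Esrrb at 11.3 CPM in WT running 1 (others 1.02 to 1.95) and Mrpl34, a mitochondrial ribosomal protein gene, at 122 CPM in WT running 4 (others 87.3 to 92.4).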

How the results depend on the processing

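The count of 55 called genes (44 higher, 11 lower) rested on the test, the scaling and the mice. DESeq2 called 196 (143 and 53), limma-voom 23 (16 and 7), spike-in library sizes 604 (602 and 2), no low-count filter 217 (154 and 63) and an adjusted p under 0.10 149 (109 and 40). With 1 mouse left out, the counts ran from 0 to 197 in all, 0 to 138 higher and 0 to 59 lower; leaving out 1 FLExDUX4 mouse, added after seeing the data, gave 12 to 118. RLE factors (56), upper quartile factors (49), counts without mitochondrial genes (54), a 1 CPM filter (64), no robust estimate (74, of which 38 were among the 55) and the WT libraries alone (56, of which 36 were among the 55) stayed within 1.5 times. The cause of these differences was not tested. DESeq2 called all 55, and limma-voom called 10 of them. Those 10 were Ech1, Got1, Gpd1, Hspb7, Myl12a, Nrep, Palld, Plbd1, Rragd and mt-Tt. They hold no subunit gene of the respiratory chain or ATP synthase. The interaction, 0 calls, gave 1 with spike-in sizes, 11 without a filter and 0 to 1 with a mouse left out. Running in FLExDUX4, also 0 calls, gave 24 without a filter and 2 without WT running 1. No called gene changed sign under any alternative run.

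Signs turned for uncalled values. With spike-in sizes Fbxo32 went from -0.16 to 0.21, Trim63 from -0.27 to 0.066 and Col1a1 from -0.21 to 0.16. With a WT mouse left out, Pax7 ran from -0.17 (without control 1) to 1.13, Fbxo32 from -0.42 to 0.051 (without control 1), Col1a1 from -0.36 to 0.071 (without control 1) and Vegfa from -0.23 (without running 1) to 0.59. Spike-in sizes turned 15 list medians from negative to positive, each by about the shift of all genes: glycolysis (0.047), glycogen (0.10), lactate (0.21), glucose uptake (0.25), Z-disc and M-band (0.31), oxidative regulators (0.19), myoglobin, haem and iron (0.30), unfolded protein response (0.33), satellite cell (0.093), regeneration (0.22), neuromuscular junction (0.10), adipocyte (0.058), methionine and polyamine (0.26), lipogenesis (0.32) and membrane transport (0.35). Summed marker differences, running minus control, turned with a mouse left out for fibroblast and matrix genes (-219.5 to 155 CPM, positive without control 1), macrophage markers (-11.2 to 33.05 CPM, negative without control 3 or running 3, -8.63) and lymphocyte markers (-23.2 to 5.28 CPM, positive without control 1 or running 2, 0.895). No paired analysis was possible because the labels give each mouse its own tag and no number shared between groups. At 3.27 to 6.09 reads per CPM, genes at a few CPM rest on few reads.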
